A study of Mus musculus with 6 samples.

Results

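Lysyl oxidases and collagen hydroxylases are the enzymes that modify and crosslink collagen and elastin, and their transcripts were compared between aortas of mice deficient in endothelial nitric oxide synthase (eNOS, encoded by Nos3) and aortas of wild-type mice. The family was taken as 10 genes: the lysyl oxidases Lox, Loxl1, Loxl2, Loxl3 and Loxl4, the lysyl hydroxylases Plod1, Plod2 and Plod3, and the prolyl 4-hydroxylase subunits P4ha1 and P4ha2. A gene was measured through probe sets that the array annotation assigns to 1 gene symbol only, which gave 8 of the 10, each with 1 probe set, out of 18007 genes tested. Loxl2 and Plod3 had only probe sets shared with another gene and are given no value. All 8 measured genes passed the filter on dim signals.

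The study used 3 eNOS-deficient samples (titled 11, 15 and 19) and 3 wild-type samples (2, 3 and 5) of aorta, matched for age, with 1 Affymetrix array per sample. Strain, sex, the age itself and the targeted allele are not given in the labels, which name no treatment either. Whether each sample is a different mouse is not stated, and the p-values therefore reflect the spread of these samples, which may be technical. Values are log2 signals after robust multi-array averaging (RMA), in which 1 unit is a doubling of signal and signals of different probe sets are not comparable with each other.

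Collagen is modified before it is secreted. Prolyl 4-hydroxylases hydroxylate prolines in the endoplasmic reticulum, which makes the triple helix stable at body temperature, and lysyl hydroxylases prepare lysines for glycosylation and crosslinking. Both are dioxygenases that need iron, oxygen, oxoglutarate and ascorbate. Lysyl oxidases are copper enzymes that act outside the cell, where they oxidise lysines of collagen and elastin to aldehydes that then form covalent crosslinks. In the aorta this crosslinking gives the elastic laminae and the adventitial collagen their strength.

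As a check of the labels, Nos3 measured 7.13, 7.39 and 7.27 in eNOS-deficient samples 11, 15 and 19, against 7.99, 7.88 and 7.36 in wild-type samples 2, 3 and 5. The groups overlapped because of wild type 5 (limma adjusted p = 0.399). The endothelial marker mean over 10 genes was lowest of the 6 arrays on wild type 5, at 7.97, and its part in the Nos3 values was not tested. Where the probes lie relative to the targeted part of the gene is not known here. Wild type 5 also stood apart in squamous epithelium markers, whose mean over 11 genes was 8.19 there. It was 6.36 and 5.74 on wild type 2 and 3, and 5.57, 5.31 and 5.45 on eNOS-deficient 11, 15 and 19. The group means were thus separate, also without wild type 5. All 11 genes had a negative difference with all 6 arrays, but not each of them without wild type 5. Trp63 measured 5.45 and 5.21 on wild type 2 and 3, below its 5.87, 5.51 and 5.67 on eNOS-deficient 11, 15 and 19. Krt4 measured 9.64 and 6.18 on wild type 2 and 3, against 5.16, 4.76 and 4.41. The mean of 3 Y-linked genes was 4.71 in eNOS-deficient sample 15 and at least 7.76 in samples 11 and 19. In the wild-type samples it was 3.47 to 3.63, under the dim filter level of 4.38. Each of the 3 genes was higher on every eNOS-deficient array than on any wild-type array. Sex, which the labels do not give, may therefore differ between the groups and could then not be told apart from genotype. All 10 smooth muscle markers were above the dim filter level, and their mean ran from 9.02 to 9.60 over the 6 arrays. All 11 squamous epithelium and all 10 skeletal muscle markers were above it too, so passing it does not check the labelled tissue. Adipocyte markers averaged 10.85 to 11.22, with overlapping groups. These are whole-tissue samples, so more cells of a type and more RNA per cell cannot be told apart.

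Of the 8 measured genes, 7 had a positive difference (eNOS-deficient minus wild type) and 1 a negative one, with a median of 0.48 log2 against 0.036 for all genes tested. None passed a Benjamini-Hochberg adjusted p under 0.05 in limma, where 0.0111% of all genes passed as higher and 0.0167% as lower. At an unadjusted p under 0.05, 5 of the 8 were higher (Lox, Loxl1, Loxl3, Plod1 and P4ha1) and 0 lower, beside 7.86% of all genes higher and 3.72% lower. For 4 of the 8 (Lox, Loxl1, Loxl3 and Plod1) every eNOS-deficient array lay above every wild-type array, which held for 13.1% of all genes, and for 0 of the 8 was it the reverse, which held for 6.48%. The unadjusted calls over all genes split into 1415 higher and 669 lower as deposited and into 2028 and 388 with arrays centred on their medians. Without wild type 5, 4 of the 8 were higher at an unadjusted p under 0.05 (8.98% of all genes) and 5 of the 8 had groups that did not overlap (19.2%), and their median was 0.33. With 3 arrays against 3, the exact permutation test of a single gene cannot give a p below 0.1.

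**Figure D1:**
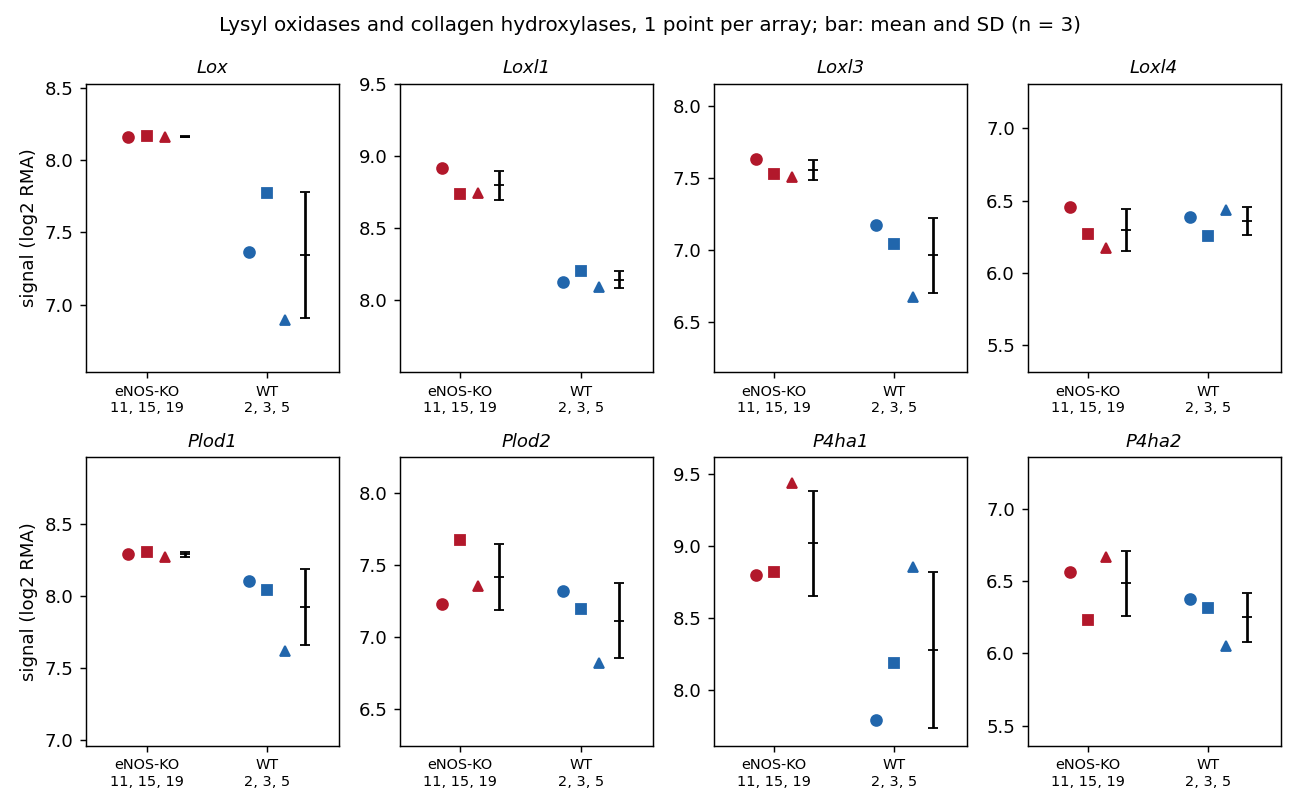
Log2 RMA signal of the 8 measured genes, with 1 point per array (circle, square and triangle are eNOS-deficient 11, 15 and 19 in red and wild type 2, 3 and 5 in blue) and the mean with SD of each group of 3 in black; every panel spans 2 log2 units. The groups are separate for Lox, Loxl1, Loxl3 and Plod1, and overlap for Loxl4, Plod2, P4ha1 and P4ha2.

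Among the lysyl oxidases, 3 of the 4 measured had higher signal on every eNOS-deficient array than on any wild-type array, beside 13.1% of all genes. Lox, the founding member and the lysyl oxidase without which mice die of aortic rupture around birth, stood at 8.16, 8.17 and 8.16 in eNOS-deficient samples 11, 15 and 19. Its values in wild-type samples 2, 3 and 5 were 7.36, 7.77 and 6.90. The eNOS-deficient arrays lay within 0.0072 log2 of each other, while the wild-type arrays spread over 0.88, with wild type 5 lowest. The means were 8.16 ± 0.0039 (SD, n = 3) and 7.34 ± 0.44, a difference of 0.82 log2 (95% interval 0.32 to 1.32, 1.76-fold) that did not pass over all genes (limma adjusted p = 0.289, exact permutation p = 0.1). Without wild type 5 the difference was 0.60 (limma adjusted p = 0.177).

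Loxl1, which is needed to maintain elastic fibres in adult tissues, was the member with the smallest unadjusted p, the 55th smallest of all genes. Its values were 8.91, 8.74 and 8.74 on the eNOS-deficient arrays and 8.13, 8.20 and 8.09 on the wild-type arrays. Here both groups were tight, and the gap between them, 0.53 log2, was wider than the range of either group, 0.18 and 0.12. The difference was 0.66 (95% interval 0.39 to 0.93, 1.58-fold, limma adjusted p = 0.198, exact permutation p = 0.1), and it was 0.63 without wild type 5.

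Loxl3, of the subgroup of lysyl oxidases with scavenger receptor domains, measured 7.63, 7.53 and 7.50 on the eNOS-deficient arrays. On wild type 2, 3 and 5 it measured 7.18, 7.04 and 6.67, again lowest on wild type 5. The groups were separate by 0.33 log2, and the difference of 0.59 (95% interval 0.23 to 0.95, limma adjusted p = 0.289) was 0.44 without wild type 5. Loxl4, of the same subgroup, stood at 6.45, 6.27 and 6.17 against 6.39, 6.25 and 6.43. Its groups overlapped throughout, and its difference of -0.06 (95% interval -0.36 to 0.24, limma adjusted p = 0.898) turned to 0.0049 with arrays centred on their medians. The interval of Loxl4 does not reach the estimates of Lox, Loxl1 and Loxl3, but the difference between these genes was not tested.

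Among the collagen hydroxylases, 1 of the 4 measured genes had groups that did not overlap, beside 13.1% of all genes in that direction. Plod1, lysyl hydroxylase of the helical part of collagen, stood at 8.29, 8.30 and 8.27 on the eNOS-deficient arrays and at 8.11, 8.04 and 7.62 on the wild-type arrays. As with Lox, the eNOS-deficient arrays were close together, within 0.033 log2, and wild type 5 was lowest. The difference was 0.37 (95% interval 0.0061 to 0.73, unadjusted p = 0.047, limma adjusted p = 0.427), and it was 0.22 without wild type 5. Plod2, the lysyl hydroxylase of the telopeptides that form the crosslinks typical of fibrosis, stood at 7.23, 7.67 and 7.36 against 7.32, 7.20 and 6.82. Its groups overlapped, with wild type 2 above eNOS-deficient 11, and the difference was 0.31 (95% interval -0.12 to 0.73, limma adjusted p = 0.557), with 0.16 without wild type 5 and 0.18 without eNOS-deficient 15.

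P4ha1, the main catalytic subunit of prolyl 4-hydroxylase in most cells, varied most within the groups. It stood at 8.79, 8.82 and 9.44 on the eNOS-deficient arrays, in the order 11, 15 and 19, and at 7.79, 8.19 and 8.85 on the wild-type arrays, in the order 2, 3 and 5. Wild type 5, the lowest array for 6 of the 8 genes, was here the highest wild-type array and lay above eNOS-deficient 11 and 15. The difference was 0.74 (95% interval 0.044 to 1.43, limma adjusted p = 0.411), and without wild type 5 it was 1.03 with separate groups (limma adjusted p = 0.162). P4ha2, the alternative catalytic subunit, stood at 6.56, 6.23 and 6.67 against 6.38, 6.32 and 6.05. Its groups overlapped through eNOS-deficient 15, and the difference was 0.24 (95% interval -0.14 to 0.61, limma adjusted p = 0.609). It was 0.14 without wild type 5, 0.15 without eNOS-deficient 19 and 0.36 without eNOS-deficient 15.

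**Figure D2:**
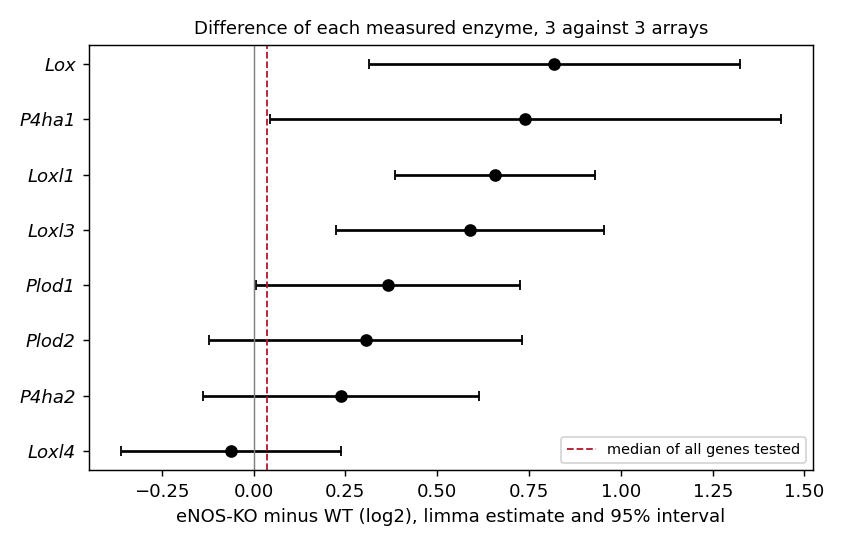
Difference between eNOS-deficient and wild-type aorta (log2, horizontal axis) for each measured gene, as the limma estimate (point) with its 95% interval (bar); the dashed line is the median of all genes tested, 0.036. The intervals of Lox, P4ha1, Loxl1, Loxl3 and Plod1 lie above 0 and those of Plod2, P4ha2 and Loxl4 include it.

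The DNA upstream of hydroxylase genes is shown because P4ha1, P4ha2 and Plod1 are known hypoxia-responsive genes, and the core that hypoxia-inducible factors bind, ACGTG or GCGTG, can be looked for there. The sequences come from RefSeq (GRCm38.p6), and upstream stretches of 4 of the 8 measured genes were searched (Loxl4, Plod1, P4ha1 and P4ha2). Lox, Loxl1, Loxl3 and Plod2 were not searched. They are written 5′ to 3′ on the strand of the gene, stop before the first base of any annotated transcript of the gene, and have the core, on either strand, in capitals.
P4ha1, chr10:59323046-59323196, plus strand: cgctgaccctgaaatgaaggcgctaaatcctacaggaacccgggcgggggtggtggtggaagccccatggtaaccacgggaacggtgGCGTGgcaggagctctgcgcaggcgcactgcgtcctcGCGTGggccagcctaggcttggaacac
P4ha2, chr11:54100674-54100923, plus strand: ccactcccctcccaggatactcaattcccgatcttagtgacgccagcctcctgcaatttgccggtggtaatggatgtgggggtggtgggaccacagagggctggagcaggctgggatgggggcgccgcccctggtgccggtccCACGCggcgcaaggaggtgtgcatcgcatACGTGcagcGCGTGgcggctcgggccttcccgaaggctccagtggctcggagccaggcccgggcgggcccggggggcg
Plod1, chr4:147936777-147937026, minus strand: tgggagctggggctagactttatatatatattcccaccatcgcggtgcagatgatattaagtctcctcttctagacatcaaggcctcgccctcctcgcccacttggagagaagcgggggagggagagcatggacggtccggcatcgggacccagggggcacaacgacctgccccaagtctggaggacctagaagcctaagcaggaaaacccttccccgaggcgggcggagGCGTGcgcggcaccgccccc

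In the full window of 250 bases before the transcript start, P4ha1 and P4ha2 each held 3 matches to the core (2 of those of P4ha1 lie in the stretch shown, which ends at base 59323196 because a longer annotated transcript begins within the window), and Plod1 and Loxl4 held 1 each. Of 32851 promoter windows of that length, 38.6% held at least 1 match and 6.58% at least 3, counting both strands and overlapping matches. The windows of P4ha1 and P4ha2 are 69.6% and 70.0% G or C. A match describes the letters and does not show binding.

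The genes did not share 1 profile over the 6 arrays. After each gene was centred on its mean, Loxl3 and Plod1 were the closest pair, with a root mean square difference of 0.12 log2 over the 6 arrays. Plod2 and P4ha1 were the farthest, at 0.58. Wild type 5 was the lowest of all arrays for Lox, Loxl1, Loxl3, Plod1, Plod2 and P4ha2, while wild type 2 was lowest for P4ha1 and eNOS-deficient 19 for Loxl4. The mean of the 8 genes exceeded its wild-type average by 0.46, 0.42 and 0.49 log2 in eNOS-deficient samples 11, 15 and 19. On wild type 2, 3 and 5 it lay at 0.035, 0.081 and -0.12.

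Marker means of several cell types differed between the same groups of arrays. Fibroblast markers (9 genes, all with a positive difference) averaged 9.53, 9.34 and 9.22 on the eNOS-deficient arrays and 8.43, 8.60 and 9.15 on wild type 2, 3 and 5. Wild type 5 was the highest wild-type array for these markers and the lowest for Lox, Loxl1, Loxl3 and Plod1. Smooth muscle markers (10 genes, 9 with a positive difference) averaged 9.45, 9.30 and 9.60 against 9.27, 9.10 and 9.02, with wild type 5 lowest. The 1 negative was Myh11, at 10.18, 10.09 and 10.46 against 10.88, 10.69 and 9.98. The count of 9 depends on wild type 5, since Smtn was lower on every eNOS-deficient array than on wild type 2 and 3. Macrophage markers (10 genes, all positive) averaged 8.21, 8.24 and 8.61 against 7.50, 7.57 and 7.85, and P4ha1 ranked the arrays of each genotype in that same order. Endothelial markers averaged 8.18 to 8.53 on the eNOS-deficient arrays and 7.97 to 8.74 on the wild-type arrays, and lymphocyte markers 6.62 to 9.58 against 8.62 to 9.13, both with overlap. Chondrocyte markers (10 genes, 9 of them above the dim filter level, 8 with a positive difference and 2 with a negative one) averaged 5.46 to 5.61 against 5.20 to 5.24. The genes of this list differed: Acan stood at 6.31, 6.37 and 6.04 against 4.95, 4.57 and 5.06. Col2a1 stood at 6.10, 6.29 and 5.84 against 5.91, 6.06 and 6.19, with overlap. Skeletal muscle markers averaged 9.98 to 11.51 against 9.07 to 10.89, with overlap. The part of these cell types, of the squamous epithelium signal on the wild-type arrays and of the Y-linked difference in the values of the 8 genes was not tested.

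**Figure D3:**
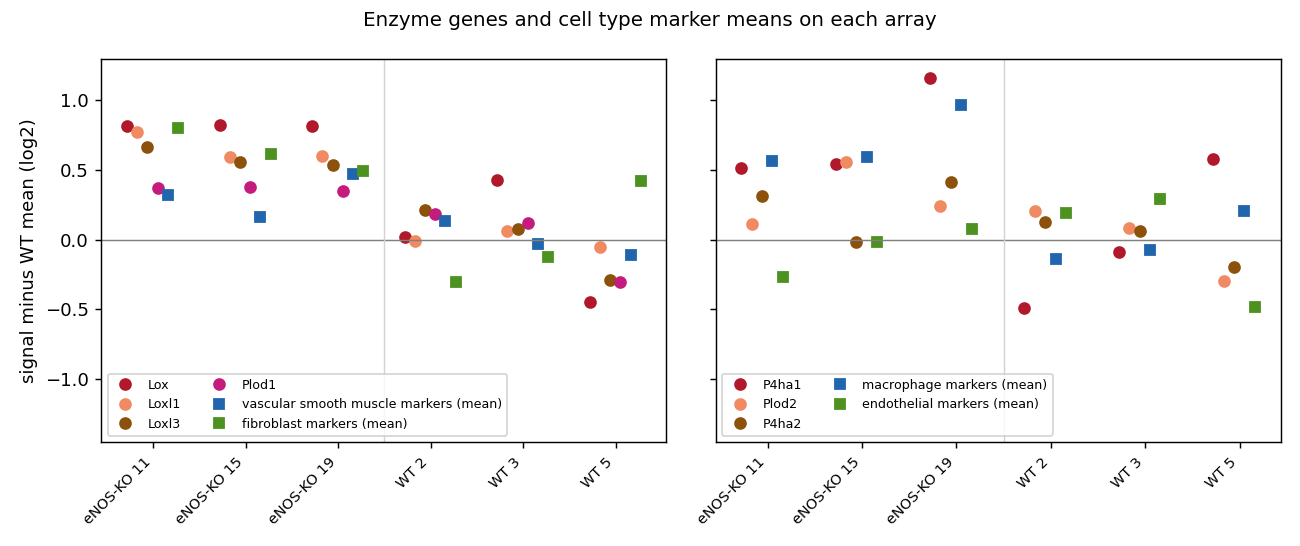
Signal minus the wild-type mean (log2, vertical axis) on each of the 6 arrays, for Lox, Loxl1, Loxl3 and Plod1 beside smooth muscle and fibroblast marker means (left), and for P4ha1, Plod2 and P4ha2 beside macrophage and endothelial marker means (right); circles are genes, squares are means of marker lists. On wild type 5 Lox is at -0.45 and P4ha1 at 0.58.

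The other genes of the pathway were read from 7 lists, in which 88 of 95 symbols were tested and 0 passed in limma over all genes. Of 16 genes that fold and modify collagen in the endoplasmic reticulum, 3 were past an unadjusted p of 0.05 as higher (7.86% of all genes) and 0 as lower, with a median of 0.21. Without eNOS-deficient 11, or without eNOS-deficient 15, 1 was higher, with arrays centred on their medians 5 were, and without wild type 5 the median was 0.12 and 1 was lower. P3h2, a prolyl 3-hydroxylase, stood at 7.40, 7.52 and 7.84 against 6.59, 6.61 and 7.01, a difference of 0.85 (limma adjusted p = 0.215). All 3 of its eNOS-deficient arrays were above the wild-type arrays, and within each genotype it was highest on the array where P4ha1 was highest. Fkbp14, a peptidyl-prolyl isomerase that assists collagen folding, differed by 0.53, and Tram2, which couples collagen synthesis to calcium supply at the endoplasmic reticulum, by 0.34 (limma adjusted p = 0.386 and 0.430). Colgalt2, a galactosyltransferase that glycosylates hydroxylysine, differed by -0.31 with separate groups (limma adjusted p = 0.442). P4hb, the beta subunit that joins P4ha1 or P4ha2 in the active enzyme, differed by -0.12, and P4ha3, the remaining catalytic subunit, by -0.078; both were chosen as partners of P4ha1 after their values were seen.

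Of 13 genes that cleave procollagen or assist lysyl oxidase, 6 were past an unadjusted p of 0.05 as higher (7.86% of all genes) and 0 as lower (3.72%). Their median was 0.54, close to that of the enzymes themselves. It fell to between 0.39 and 0.50 when arrays were left out in turn. Repeated quantile normalization gave 0.45, and arrays centred on their medians gave 0.60. Fn1, fibronectin, which binds Lox and aids its activation, stood at 11.47, 11.47 and 11.69 against 10.54, 10.81 and 10.47. Fbln5, fibulin 5, which ties Loxl1 to the elastic fibre, stood at 8.58, 8.84 and 8.70 against 7.96, 7.99 and 7.54. Both thus had separate groups, with wild type 5 lowest, and differences of 0.94 and 0.88 (limma adjusted p = 0.198 for each). Fmod, fibromodulin, a collagen-binding proteoglycan that modulates crosslinking by Lox, differed by 1.20, and Postn, periostin, which supports proteolytic activation of Lox, by 0.67 (limma adjusted p = 0.208 for each). The proteinases Bmp1, Adamts14, Tll1, Adamts3 and Tll2, chosen after their values were seen, differed by 0.34, 0.17, 0.082, 0.049 and -0.051. All of these proteinases had overlapping groups and none was past the unadjusted threshold.

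Of 9 fibrillar collagen chains and elastin, the substrates of the enzymes, 1 was higher at an unadjusted p under 0.05, a share near the 7.86% of all genes, and 0 were lower. With arrays centred on their medians 3 were higher. Leaving out wild type 2, or averaging the probe sets of each gene, gave 2. The median was 0.13, with 0.016 without wild type 5, 0.081 without eNOS-deficient 11, 0.22 without wild type 2 and 0.23 without eNOS-deficient 19. The gene past that threshold with all arrays was Eln, elastin, at 9.58, 9.19 and 9.14 against 8.58, 8.07 and 8.10, a difference of 1.05 (limma adjusted p = 0.198). Col1a2, Col5a2 and Col5a3 differed by 0.35, 0.25 and 0.15, with separate groups for Col5a2 only of the 3. The main chains Col1a1 and Col3a1, chosen after their values were seen as the bulk of vessel collagen, differed by 0.22 (standard error 0.26) and 0.05 (standard error 0.19), and their groups overlapped. Whether the enzymes differed more than the collagens was not tested.

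Of 13 genes of cofactor supply, 1 was higher (7.86% of all genes) and 0 were lower (3.72%) at that threshold (median 0.18). The median was 0.091 without eNOS-deficient 11, leaving out either eNOS-deficient 19 or wild type 5 gave 2 higher, and leaving out wild type 2 gave 1 lower. The gene past it with all arrays was Slc40a1, the iron exporter ferroportin, which macrophages also express, at 7.32, 7.01 and 7.01 against 6.39, 6.63 and 6.37 (difference 0.65, limma adjusted p = 0.236). Slc31a1, the copper importer, differed by 0.39, Idh1, which makes oxoglutarate, by 0.27, and Slc23a1, an ascorbate transporter, by -0.25, each with overlapping groups.

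Of the 5 other oxoglutarate-dependent hydroxylases, which modify hypoxia-inducible factors, 0 were past an unadjusted p under 0.05 in limma (median 0.21). Leaving out eNOS-deficient 11 gave a median of 0.081, and leaving out wild type 5 gave 0.11 with 1 gene past as higher. Egln3, a prolyl hydroxylase that is itself induced by hypoxia, stood at 9.52, 9.24 and 9.12 on the eNOS-deficient arrays, against 7.82, 7.81 and 9.57 on the wild-type arrays, the last of them wild type 5. It therefore shared with P4ha1 a high value on wild type 5, and its difference of 0.89 had a standard error of 0.46. P4htm, Hif1an and Egln1 differed by 0.23, 0.21 and 0.12. Of 17 hypoxia-inducible factors and their targets, 1 was past an unadjusted p of 0.05 as higher (7.86% of all genes) and 0 as lower (3.72%). Their median of 0.03 was close to that of all genes, 0.036. It turned to -0.051 after repeated quantile normalization and to -0.043 without wild type 5. None of the 17 was past as higher without eNOS-deficient 11, without eNOS-deficient 19 or without wild type 2 (0 in each case). Without wild type 5, 1 was lower. The gene past it with all arrays was Adm, adrenomedullin, a vasodilator peptide, with a difference of 0.44 (limma adjusted p = 0.386). Bnip3, Pfkfb3 and Ldha differed by 0.36, 0.29 and 0.17, with overlapping groups.

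Transforming growth factor beta signalling induces lysyl oxidases and lysyl hydroxylases in many cells. Of 14 of its genes, 5 were past an unadjusted p of 0.05 as higher (7.86% of all genes) and 0 as lower (3.72%). The median was 0.25. That median ran from 0.17 to 0.37 when arrays were left out in turn, with 4 to 5 genes higher. Ltbp1, which stores the latent factor in the matrix, stood at 8.75, 8.56 and 8.75 against 8.06, 8.07 and 7.92, with separate groups and a difference of 0.67 (limma adjusted p = 0.198). Ccn2, a target of the pathway, differed by 1.09, and the ligands Tgfb2 and Tgfb3 by 0.63 and 0.59, each with separate groups (limma adjusted p = 0.218, 0.249 and 0.317). Groups were separate and higher for 6 of the 14 (13.1% of all genes). The other 9 genes were not past the unadjusted threshold. Tgfb1, Tgfbr1 and Tgfbr2, chosen after their values were seen, differed by 0.16, 0.17 and 0.19, with overlapping groups. Smad2, Smad4 and Smad7, chosen in the same way, differed by 0.095, -0.014 and 0.044, also with overlap.

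**Figure D4:**
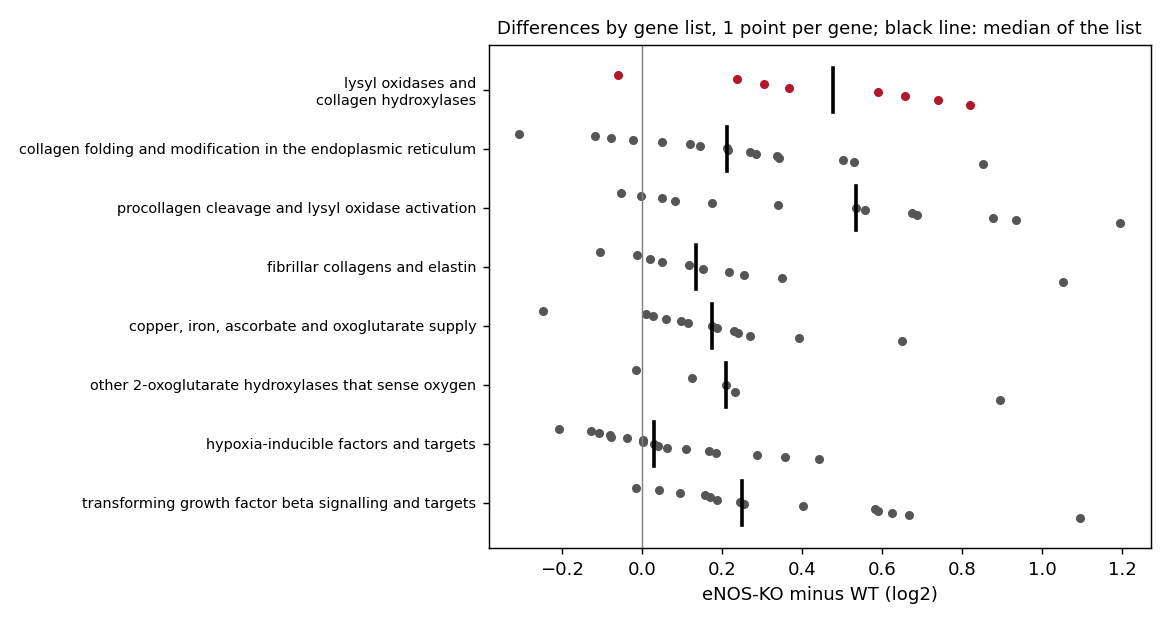
Differences between eNOS-deficient and wild-type aorta (log2, horizontal axis) of the 8 measured enzymes (red) and of the tested genes of 7 related lists (grey), 1 point per gene, with the median of each list as a black line. The medians run from 0.03 for hypoxia-inducible factors and targets to 0.54 for procollagen cleavage and lysyl oxidase activation, with the enzymes at 0.48.

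By root mean square difference of centred values over the 6 arrays, the genes nearest to Lox were Ttc30b (0.12 log2), Tshr (0.13), Fat1 (0.13), Htra4 (0.14) and Polr2l (0.15). Nearest to the mean of the 8 enzymes were Pcgf5 (0.033), Nfkbib (0.041), Wdr46 (0.049), Scara5 (0.051) and Ccdc130 (0.052). Each of these 10 genes had separate groups, as did 13.1% of all genes in the higher direction. This follows from the choice of the 10, since Lox and the mean of the 8 enzymes have separate groups. None passed over all genes (limma adjusted p from 0.244 to 0.317).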

How the data were processed

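Log2 signals of 41345 probe sets on 6 arrays were used as the authors deposited them. Per the labels' protocols, biotinylated cDNA was made from 300 ng of total RNA, and per the submitters' processing notes, signals came from RMA in Affymetrix Expression Console 1.3.1. RMA includes a step that equalises signal distributions between arrays, so global shifts cannot be read from the values. The deposited array medians still differed, at 5.55 to 5.59 for eNOS-deficient and 5.61 to 5.68 for wild-type samples. Of the probe sets, 23521 named 1 gene, 1814 several and 16010 none. The brightest probe set per gene was kept, and genes averaging below 4.38, the 25th percentile over the probe sets, were left out, which left 18007. Groups were compared with limma 3.58.1 in R 4.3.3 (lmFit, eBayes, two-sided, no covariates, Benjamini-Hochberg over all 18007 genes), and single genes also by a two-sided exact permutation test. The number of arrays limits the precision; the median standard error of a difference was 0.16 log2. The code was tested on simulated data. Named genes were Nos3, the members, up to 4 genes per related list by smallest p, and the 5 nearest profiles to Lox and to the members' mean, leaving out predicted genes and small RNAs; exceptions are stated. The members and lists were chosen with earlier results of these data known. Alternatives were other dim filters, variance models, probe set summaries, scalings, and leaving out each array. Plots were drawn with matplotlib 3.10.9.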

Additional observations from a re-analysis of the deposited data

How the results depend on the processing

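No member passed an adjusted p under 0.05 in limma under any of the 12 alternatives, and Lox, Loxl1, Loxl3, Plod1, Plod2, P4ha1 and P4ha2 kept a positive difference in all 12. Loxl4 turned to 0.0049 with arrays centred on their medians and ran from -0.14 to 0.0042 when arrays were left out in turn. Members higher at an unadjusted p under 0.05 numbered 3 after repeated quantile normalization and 3 to 4 when arrays were left out, against 5; members without overlap numbered 4 to 5. The members' median ran from 0.33 (without wild type 5) to 0.53 over left-out arrays. Of all genes, 2 higher and 3 lower passed; leaving out arrays gave 0 to 5 higher and 0 to 1 lower, averaging the probe sets per gene gave 1 and 1, no dim filter gave 1 lower, and repeated quantile normalization gave 0 lower. The cause of these moves was not tested. No paired analysis was possible because the groups share no replicate number. With 3 arrays per group, no exact p below 0.1 can be reached.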
